A study of Mus musculus with 14 samples.

Results

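Hindstomach epithelium labelled as Gata4 conditional knockout was compared with control hindstomach epithelium in mouse embryos at E14.5. The comparison was defined by the group given in the sample titles and held 8 of the 14 RNA-seq libraries of the study, 5 knockout libraries (replicates 1 to 5) and 3 control libraries (replicates 2, 3 and 4). The knockout libraries carry the genotype label of the mutant of the Gata4 conditional knockout. The controls carry the label of its control and are also called wild type, so the labels do not settle whether they hold a floxed allele or a Cre transgene. The labels name no Cre driver or deleted exons, and they do not say whether embryos were pooled. The remaining 6 libraries were 3 forestomach libraries labelled Gata4 knock-in and 3 forestomach controls. They entered the fit and lent it their spread, and in the covariate fit described below they also bear on the fold changes.

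GATA4 is a zinc-finger transcription factor that binds DNA with a GATA core, and Gata5 and Gata6 encode its paralogs in endoderm. In the mouse stomach it marks the columnar glandular epithelium of the hindstomach and is absent from the stratified squamous epithelium of the forestomach. Columnar gastric cells secrete acid, pepsinogens, mucins and trefoil peptides and carry an apical brush of microvilli, whereas squamous basal cells express the transcription factor p63 and keratin 5. Hedgehog ligands of gut epithelium act on the mesenchyme beneath it, which in turn sends BMP, FGF and Wnt pathway signals.

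Values were deposited as FPKM, so absolute depth is unknown. Relative to the deepest of the 14 libraries, control 3, depth was 48.6% to 85.9% in knockout libraries and 62.0% to 100% in control libraries, and 10607 to 11932 and 11349 to 11800 genes reached 1 FPKM. The libraries also differed in how level related to GC content. A GC slope was computed per library, as the regression of its centred log2(FPKM + 1) values on transcript GC content. It was -0.547, -0.429, -0.600, 0.094 and 0.507 log2 per 10% GC in knockout libraries 1 to 5, against 0.640, 0.585 and 0.589 in control libraries 2, 3 and 4 (two-sided exact permutation p = 0.0357 over 56 splits). The slope was below that of every control in all 5 knockout libraries and nearest to the controls in knockout 5. The first principal component of the 8 libraries, with 81.7% of the variance, placed them in much the same order, at -69.8, -54.3, -75.3, -13.6 and 33.6 for knockout 1 to 5 and 63.9, 51.0 and 64.5 for the controls. Genes were therefore compared in a limma fit of the values as deposited and again with the slope as a covariate. The covariate has 1 coefficient per gene over all 14 libraries, so the forestomach libraries help to set the fold changes of that fit. The slope is computed from the same values, so a call in both fits is a stricter count and no independent check. A technical source of the slope and a difference between the groups cannot be told apart here.

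Gata4, the targeted gene, stood at 16.9, 19.4, 13.0, 32.1 and 59.6 FPKM in knockout libraries 1 to 5, against 65.7, 61.5 and 64.9 FPKM in control libraries. Each knockout library lay below each control, but knockout 5 lay only just below and had the slope nearest to the controls. The difference did not pass in the limma fits (log2 fold change -1.37, SE 0.47, limma adjusted p = 0.0672, and -0.38 with adjusted p = 0.354 with the slope covariate). A two-sided exact permutation test of the mean log2(FPKM + 1) over 56 splits gave p = 0.0357. Without knockout 5 the limma difference passed as deposited, at -1.68 with adjusted p = 0.0134, and not with the covariate, at -0.65 with adjusted p = 0.113. The targeted gene thus did not bear out the label of knockout 5, which is called the library labelled knockout 5 below. Knockout libraries are those that carry the label, this one included, and many list counts that it moves by over 1.5 times are also given without it. With the deleted exons unknown, gene-level FPKM cannot measure the deletion itself.

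In the fit of the values as deposited 883 of 12694 genes were called higher in knockout libraries, which is 6.96%, and 797 lower, which is 6.28%. A call is a Benjamini-Hochberg adjusted p under 0.05, and fold changes are on the log2(FPKM + 1) scale, which understates the change of weakly expressed genes. With the slope covariate 968 (7.63%) were higher and 596 (4.7%) lower. In both fits 450 (3.54%) were higher and 498 (3.92%) lower, or 7.47% in either direction, beside 13.2% called in either direction as deposited. In nearly all of these, 443 higher (3.49%) and 496 lower (3.91%), the groups did not overlap. Groups failed to overlap for 42.6% of all genes tested, 17.7% higher and 24.9% lower in knockout libraries. The shares called as deposited and in both fits are the background to every list count below. The median fold change of all genes was -0.08 as deposited and 0.09 with the covariate. Rescaling every library to a common FPKM sum moved that median to 0.16 and the share of calls that were higher to 66.6% (1291 higher, 648 lower), against 52.6% as deposited. The counts rest on single libraries. Without the library labelled knockout 5 they were 1763 higher and 2361 lower, without control 2 118 and 219, and without control 4 69 and 198. Without knockout 1, 2, 3 or 4 they were 359 and 391, 586 and 418, 406 and 396, and 497 and 493, and without control 3 661 and 452. In none of these fits was a gene that the full comparison called then called in the opposite direction. The submitters' labels do not say whether the replicates are separate embryos or litters, so every p-value measures only the spread between these libraries.

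**Figure D1:**
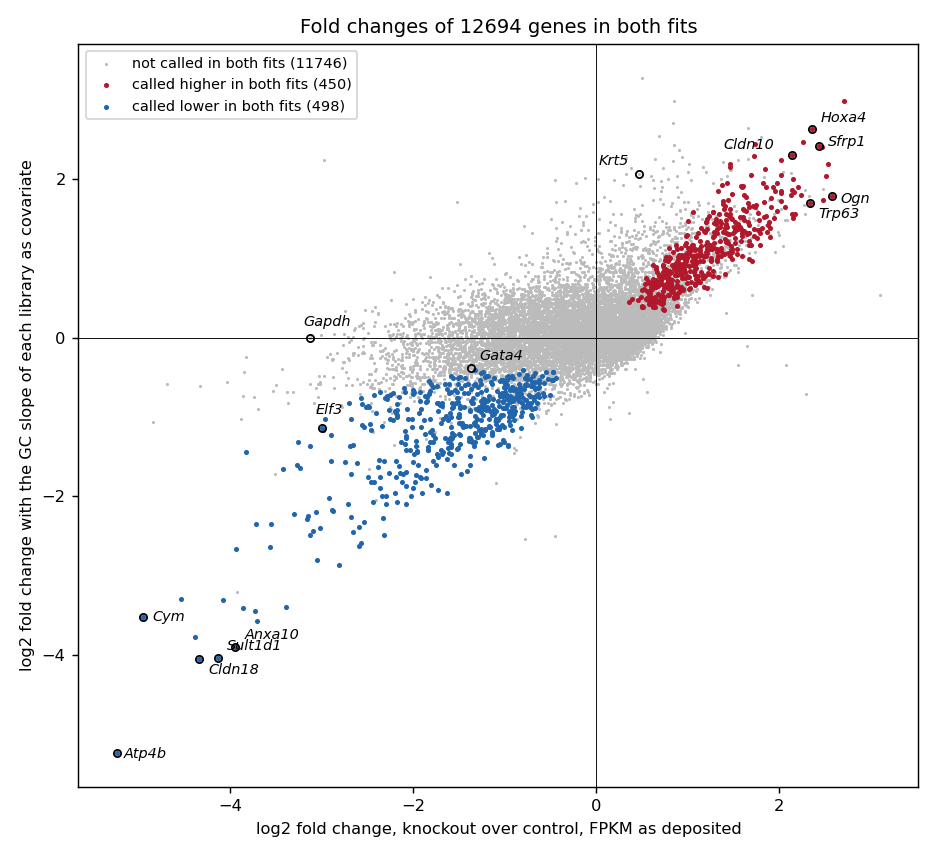
Log2 fold change of knockout over control hindstomach in the fit of FPKM as deposited (horizontal) and in the fit with the GC slope of each library as a covariate (vertical), 1 point per gene. Red points (450) and blue points (498) were called in both fits. Gastric genes such as Atp4b and Cldn18 lie near the diagonal at the lower left, whereas Gapdh, which was not called, lies at -3.12 on the horizontal axis and near 0 on the vertical one.

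Genes of the gastric glandular epithelium fell in the knockout libraries. Of 33 listed secretory and surface genes of the stomach 26 were expressed highly enough to be tested. Of these 22 were called lower and 2 higher, in each fit alike and in both, where 3.92% and 3.54% of all genes were. Over the 26 genes the median log2 fold change was -2.44 as deposited and -2.16 with the covariate. In every knockout library, the one labelled knockout 5 included, 24 of the 26 lay below all controls. Of all tested genes 49.6%, 48.9%, 50.6% and 47.0% did so in knockout 1 to 4, and 34.4% in the library labelled knockout 5. The members of this list are known hindstomach genes and were chosen with these results in view, so their count is a description. The filter partly sets this count and those of later lists, since the controls alone can admit a gene.

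Chymosin, Cym, the milk-clotting protease of the newborn stomach, was the most abundant of them in controls. It stood at 74.1, 66.8, 63.3, 99.9 and 444.7 FPKM in knockout libraries 1 to 5, against 3554.7, 1776.1 and 5947.0 FPKM in controls 2, 3 and 4. The highest, that of the library labelled knockout 5, was still far below the lowest control. Cldn18, the claudin of gastric tight junctions, stood at 15.7, 3.41, 7.39, 8.28 and 14.6 FPKM in knockout libraries, against 229.2, 131.0 and 257.1 FPKM in controls. The groups lay far apart in both genes, with control 3 the lowest control (Cym -4.95, SE 0.79, adjusted p = 0.00295, and Cldn18 -4.34, SE 0.39, adjusted p = 0.000134). With the covariate Cym stood at -3.52 (adjusted p = 0.00453) and Cldn18 at -4.05 (adjusted p = 0.000343).

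The pepsinogen and trefoil genes were close to 0 FPKM in most knockout libraries. Pgc, pepsinogen C, stood at 0.43, 0.25, 0.19, 0.45 and 1.65 FPKM in knockout libraries, against 18.1, 9.51 and 39.5 FPKM in controls. Pga5, pepsinogen A, was listed at 0 in knockout 1, 3 and 4 and stood at 0.04 and 0.49 FPKM in knockout 2 and 5, against 11.4, 7.19 and 27.2 FPKM in controls. Both proteins are inactive precursors of the acid protease pepsin, and both groups stayed apart in every library (fold changes -3.73 and -3.70, adjusted p = 0.000177 and 7.71e-05). Tff1, the trefoil peptide of surface mucous cells, stood at 0.15, 0.30, 0, 0.61 and 1.67 FPKM in knockout libraries, against 23.9, 9.98 and 33.1 FPKM in controls. Tff2, the trefoil peptide of mucous neck cells, was listed at 0 in knockout 1, 2 and 4 and stood at 0.20 and 0.46 FPKM in knockout 3 and 5, against 10.2, 4.51 and 11.8 FPKM in controls. In all 4 genes the highest value among knockout libraries was that of the library labelled knockout 5 and the lowest control was control 3.

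Gkn3, a gastrokine of the stomach mucosa, was listed at 0 in knockout libraries 1 to 4 and stood at 0.29 FPKM in the library labelled knockout 5, against 2.9, 2.72 and 2.81 FPKM in controls. Its fold change of -1.86 (SE 0.12, adjusted p = 5.91e-06) had the smallest SE of the tested gastric genes. Values listed at 0 have no spread, and among the hindstomach libraries only the controls reached the 1 FPKM of the filter. Anxa10, an annexin of gastric epithelium, stood at 5.23, 0.70, 3.90, 0.91 and 4.05 FPKM in knockout libraries, against 74.2, 21.1 and 89.0 FPKM in controls. Bpifb1, a secreted lipid-binding protein of mucosal surfaces, stood at 7.48, 3.61, 3.93, 3.48 and 13.7 FPKM, against 191.2, 59.1 and 316.5 FPKM. Both fell, by 3.94 (SE 0.51) and 4.54 (SE 0.74) on the log2 scale, with the knockout libraries well below the controls. The mucin genes Muc1 and Muc5ac also fell (-2.36 and -2.14), with 5.51 to 14.4 FPKM in knockout and 34.7 to 52.5 FPKM in control libraries for Muc1 and 0.42 to 3.26 against 6.82 to 8.36 FPKM for Muc5ac.

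The 2 members that rose were Cldn10 and Krt20. Cldn10, a claudin that forms paracellular pores for ions, stood at 10.4, 19.6, 17.2, 13.2 and 16.5 FPKM in knockout libraries, against 3.50, 3.36 and 1.40 FPKM in controls. Its fold change was 2.15 (SE 0.26, adjusted p = 0.000536) and 2.30 with the covariate, and all 5 knockout libraries were alike. Krt20, a keratin of differentiated gastrointestinal cells, stood at 1.17, 2.41, 1.85, 4.64 and 3.25 FPKM, against 0.14, 0.52 and 0.13 FPKM in controls (1.47, SE 0.37, adjusted p = 0.0254). The 2 tested members called in neither direction were Psca and Akr1c19, both below all controls in every knockout library, with fold changes of -0.97 (adjusted p = 0.06) and -0.52 (adjusted p = 0.156).

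**Figure D2:**
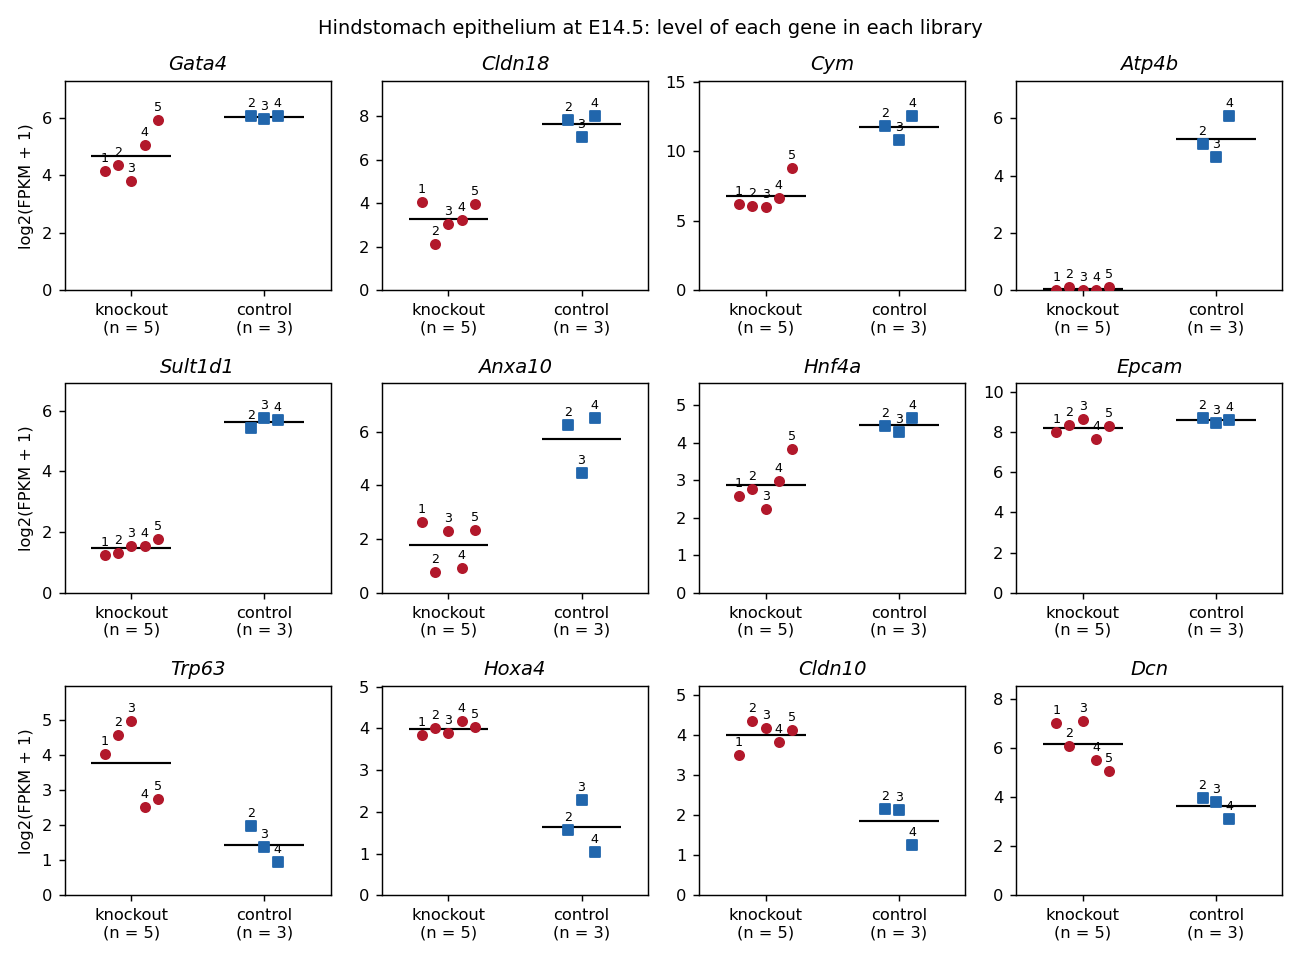
Level of 12 genes as log2(FPKM + 1) in the 5 knockout libraries (red circles) and the 3 control libraries (blue squares) of E14.5 hindstomach epithelium, with replicate numbers and group means as lines. Cldn18, Cym, Atp4b, Sult1d1 and Anxa10 are separated by a wide gap in every library, whereas Gata4 in the library labelled knockout 5 (59.6 FPKM) sits next to the controls and Epcam overlaps between the groups.

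Genes of acid secretion fell together with the secretory genes. Of 15 listed parietal cell genes 13 were tested, and 10 were called lower in both fits, with a median fold change of -2.28 as deposited and -1.46 with the covariate. The filter partly sets this count too, since the controls alone can admit a gene. Atp4b, which encodes the beta chain of the proton pump, was listed at 0 in knockout 1, 3 and 4 and stood at 0.08 FPKM in knockout 2 and 5, against 33.5, 24.3 and 66.8 FPKM in controls. No other gene of the comparison fell further (-5.24, SE 0.24, adjusted p = 1.72e-07, and -5.23 with the covariate), and the library labelled knockout 5 did not stand apart in it. The alpha subunit Atp4a was too low to be tested, with 0 to 0.09 FPKM in knockout and 0.47 to 3.17 FPKM in control libraries.

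The potassium channel subunits that serve the pump moved with it. Kcne2 stood at 0.34, 0.20, 0.25, 0.26 and 0.20 FPKM in knockout libraries, against 6.64, 3.30 and 12.0 FPKM in controls. Kcnj15, an inward rectifier potassium channel of parietal cells, stood at 0.98, 0.42, 0.84, 0.33 and 0.82 FPKM, against 12.0, 4.79 and 19.8 FPKM in controls. Knockout 5 was in the range of the other knockout libraries for both, and their fold changes of -2.59 (SE 0.26) and -2.81 (SE 0.32) were -2.62 and -2.86 with the covariate. Esrrg, a nuclear receptor of parietal cells, stood at 12.1, 7.37, 11.2, 4.51 and 8.96 FPKM, against 38.4, 41.5 and 61.1 FPKM (-2.32, SE 0.31, adjusted p = 0.00116). Slc26a7, an anion exchanger, was the 1 member called higher as deposited (0.90, adjusted p = 0.0429) and was not called with the covariate (0.82, adjusted p = 0.0986).

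Sequence upstream of these genes is shown because GATA4 binds sites with a GATA core and the genes fell together. The windows run from 250 bases before to 50 after each transcript start, are taken from RefSeq on GRCm38.p6 and are printed 5′ to 3′ along the gene's strand. Cym and Cldn18 are marker genes of the comparison, Cldn18 with both of its starts. Sult1d1 and Gkn3 are the members of the secretory and surface list with the smallest adjusted p, and Pgc is shown as a gene without a match. The windows available held none for the marker Atp4b or for Pga5 and Tff2. Capitals mark any of 4 words on either strand. The words are AGATAA and its variant AGATAG, then also TGATAA and its variant TGATAG, and on the other strand they appear as their reverse complements. No word overlaps another in the windows shown.
Cym, chr3:107221683-107221982, minus strand: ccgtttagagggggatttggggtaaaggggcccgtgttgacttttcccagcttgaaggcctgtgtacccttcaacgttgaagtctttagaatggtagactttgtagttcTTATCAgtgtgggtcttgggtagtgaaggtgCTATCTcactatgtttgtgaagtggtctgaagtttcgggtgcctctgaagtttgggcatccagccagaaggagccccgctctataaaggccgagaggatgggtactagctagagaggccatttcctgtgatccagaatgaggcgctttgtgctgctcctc
Cldn18, chr9:99717218-99717517, minus strand: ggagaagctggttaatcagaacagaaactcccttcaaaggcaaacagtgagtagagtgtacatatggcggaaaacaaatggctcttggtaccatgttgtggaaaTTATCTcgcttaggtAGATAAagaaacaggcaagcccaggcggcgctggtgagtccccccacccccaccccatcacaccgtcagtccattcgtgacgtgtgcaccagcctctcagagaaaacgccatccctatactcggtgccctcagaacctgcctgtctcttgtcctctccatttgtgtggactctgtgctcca
Cldn18, chr9:99710014-99710313, minus strand: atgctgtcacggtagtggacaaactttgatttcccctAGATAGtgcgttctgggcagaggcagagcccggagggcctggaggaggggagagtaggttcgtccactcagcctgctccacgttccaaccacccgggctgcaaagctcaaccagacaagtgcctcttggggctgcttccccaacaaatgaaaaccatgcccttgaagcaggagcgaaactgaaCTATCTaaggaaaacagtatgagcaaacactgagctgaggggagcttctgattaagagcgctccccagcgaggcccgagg
Sult1d1, chr5:87568957-87569256, minus strand: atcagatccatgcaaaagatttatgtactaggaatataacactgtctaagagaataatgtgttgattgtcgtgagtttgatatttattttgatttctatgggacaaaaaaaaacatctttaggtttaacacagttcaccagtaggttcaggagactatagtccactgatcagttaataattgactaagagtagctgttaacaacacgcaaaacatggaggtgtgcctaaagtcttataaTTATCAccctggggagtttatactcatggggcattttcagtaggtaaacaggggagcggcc
Gkn3, chr6:87388886-87389185, minus strand: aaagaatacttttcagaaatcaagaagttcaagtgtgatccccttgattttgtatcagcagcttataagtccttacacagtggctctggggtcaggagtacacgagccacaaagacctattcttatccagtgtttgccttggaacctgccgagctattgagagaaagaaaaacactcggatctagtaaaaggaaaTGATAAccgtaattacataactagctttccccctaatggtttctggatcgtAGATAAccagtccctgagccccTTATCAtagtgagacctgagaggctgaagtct
Pgc, chr17:47726592-47726891, plus strand: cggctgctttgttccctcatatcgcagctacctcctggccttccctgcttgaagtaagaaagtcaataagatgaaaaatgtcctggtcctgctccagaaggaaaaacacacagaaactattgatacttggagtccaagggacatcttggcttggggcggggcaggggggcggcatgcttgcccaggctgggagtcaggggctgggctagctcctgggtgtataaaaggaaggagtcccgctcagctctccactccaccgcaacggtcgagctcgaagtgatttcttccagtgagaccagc

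The Cym window held 2 of these words, 141 and 110 bases before the start, each Cldn18 window 2, the Sult1d1 window 1 and the Gkn3 window 3. Over all 32851 windows 29.8% held at least 1 word, and over the 12226 windows of tested genes 18.4% did. The share was 23.1% of 489 windows for genes called lower in both fits and 20.6% of 417 windows for genes called higher in both. Among the 22 gastric genes that fell, 13 had windows, 16 in all, and 9 of these (56.2%) held a word. A word in a window is a description of the letters and does not show binding. The gastric genes were chosen with these results in view, and windows were not matched for base composition. Whether the shares differ was not tested.

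Transcription factors of the endoderm and of columnar epithelium fell for 10 of 33 tested members as deposited and for 9 in both fits, with none higher in both. Hnf4a, a nuclear receptor that drives epithelial differentiation in the gut, stood at 4.93, 5.84, 3.74, 6.89 and 13.2 FPKM in knockout libraries, against 20.8, 18.6 and 24.0 FPKM in controls. Pdx1, the factor of antrum, duodenum and pancreas, stood at 0, 0.04, 0, 0.66 and 0.35 FPKM, against 1.77, 1.95 and 1.17 FPKM. The 2 fell by 1.58 (SE 0.30, adjusted p = 0.00757) and 1.14 (SE 0.18, adjusted p = 0.0025) on the log2 scale, without overlap. Spdef, an ETS factor of mucus-secreting cells, stood at 0.23, 0.37, 0.09, 0.98 and 5.25 FPKM, against 12.4, 9.05 and 12.4 FPKM (-2.71, SE 0.45, adjusted p = 0.00375). In Spdef and Hnf4a the library labelled knockout 5 lay between the other knockout libraries and the controls.

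GATA partners and paralogs were among those that fell. Zfpm1, which encodes the GATA cofactor FOG-1, stood at 0.01, 0.03, 0.05, 0.27 and 1.18 FPKM in knockout libraries, against 3.16, 3.35 and 3.94 FPKM in controls (-1.84, SE 0.25, adjusted p = 0.00129). Gata6 stood at 14.3, 11.4, 14, 11.8 and 19.0 FPKM, against 30.3, 23.3 and 33.6 FPKM, with all knockout libraries below all controls. Gata5 stood at 2.36, 1.65, 1.2, 3.26 and 7.93 FPKM, against 12.1, 8.93 and 12.2 FPKM. Gata6 was called in both fits (-1.0, adjusted p = 0.0381, and -1.12, adjusted p = 0.0412), whereas Gata5 was called as deposited (-1.67, adjusted p = 0.0269) and not with the covariate (-0.89, adjusted p = 0.084). Elf3, an epithelial ETS factor, fell in both fits (-2.99). Sox2, the foregut factor, was above all controls in every knockout library and was not called in either fit (0.81, adjusted p = 0.0807, and 0.27, adjusted p = 0.456). Counts of endoderm factors called lower ran from 5 to 12 as deposited when 1 library was left out, the lowest count being that without control 4.

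Squamous transcription factors rose for a few members only. Of 15 tested, 4 were called higher and 1 lower as deposited, and 3 higher and 1 lower in both fits, beside background shares of 3.54% and 3.92%. Trp63, which encodes p63, stood at 15.6, 22.9, 30.7, 4.72 and 5.81 FPKM in knockout libraries, against 2.94, 1.61 and 0.95 FPKM in controls. Knockout libraries 1, 2 and 3 were high and 4 and 5 were nearer to the controls, and the fold change was 2.34 (SE 0.51, adjusted p = 0.0145), or 1.69 (adjusted p = 0.0476) with the covariate. In the 3 forestomach controls Trp63 stood at 35.4, 66.8 and 61.2 FPKM. Bnc1, a zinc-finger factor of basal squamous cells that mesothelium also expresses, stood at 2.28, 1.9, 1.92, 5.40 and 4.29 FPKM, against 0.50, 1.49 and 0.34 FPKM (1.2, SE 0.30, adjusted p = 0.0247). Gata3, a GATA factor of stratified epithelia, stood at 0.74, 1.19, 0.62, 1.61 and 1.09 FPKM, against 0.05, 0.18 and 0.27 FPKM (0.80, SE 0.18, adjusted p = 0.0183). Msx2, a homeobox factor, was the member that fell (-0.84, SE 0.17, adjusted p = 0.01). Without control 4 none of the squamous factors was called higher and without control 2 only 1 was.

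**Figure D3:**
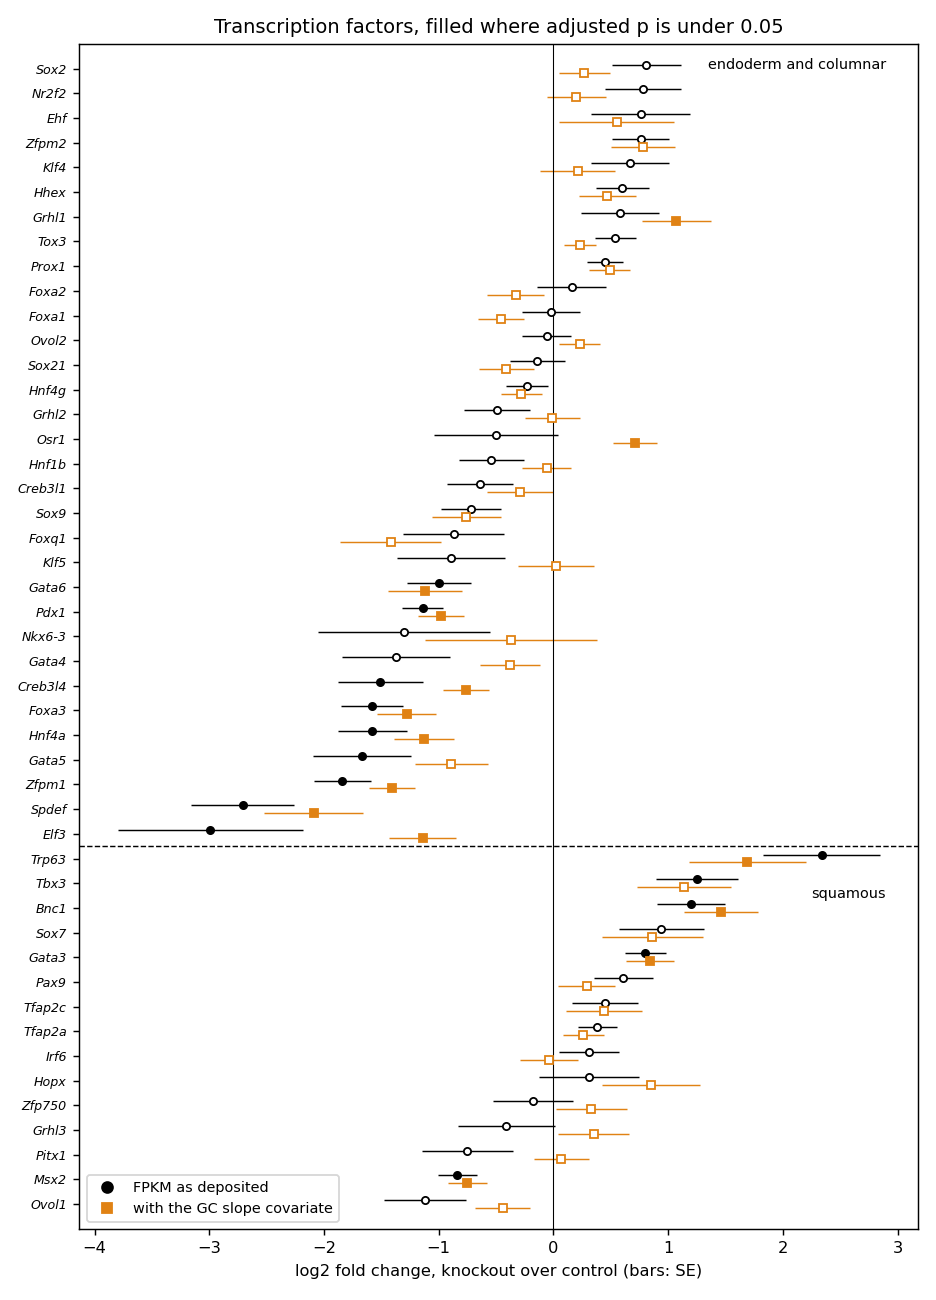
Log2 fold change with its SE for 32 transcription factors of endoderm and columnar epithelium (above the dashed line) and 15 of squamous epithelium (below it), for FPKM as deposited (black circles) and with the GC slope covariate (orange squares). Filled symbols passed an adjusted p of 0.05. Hnf4a, Foxa3, Spdef and Zfpm1 are filled on the left in both fits, Trp63, Bnc1 and Gata3 are filled on the right in both.

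Keratins and differentiation genes of stratified epithelium gave different counts in the fits compared. Of 24 tested members none was called in both fits, in either direction, and the median fold change was 0.12 as deposited and 0.57 with the covariate. With limma as deposited 1 was higher and 1 lower, and with the covariate 4 were higher. Krt5, the keratin of basal squamous cells, stood at 2.0, 1.79, 4.12, 1.43 and 2.68 FPKM in knockout libraries, against 1.94, 1.29 and 0.97 FPKM in hindstomach controls, where the 3 forestomach controls held 301.1, 381.2 and 22.4 FPKM. The groups of the hindstomach overlapped (0.47, SE 0.92, adjusted p = 0.70, and 2.06 with adjusted p = 0.0927 with the covariate). Krt15, also a basal keratin, stood at 21.1, 18.1, 38.7, 22.4 and 57.2 FPKM, against 18.0, 14.4 and 14.6 FPKM in hindstomach controls and 1245.0, 1273.3 and 103.5 FPKM in forestomach controls. It was above all hindstomach controls in all 5 knockout libraries, was not called as deposited (0.84, adjusted p = 0.51) and was called with the covariate (2.70, adjusted p = 0.0257). The covariate has 1 coefficient per gene over all 14 libraries, the forestomach ones included. The forestomach control lowest in Krt5 and Krt15 had a GC slope of -0.639, against 0.854 and 0.645 in the other forestomach controls. The part of the forestomach libraries in the covariate values and counts of this list was not tested. Krt13, a keratin of suprabasal squamous cells, was at 0 to 0.87 FPKM in knockout and 0.06 to 0.73 FPKM in control libraries. In a fit of the hindstomach libraries alone with the covariate, an alternative added after seeing the data, Krt5 stood at 0.34 (adjusted p = 0.608). Without the library labelled knockout 5 the covariate fit called 10 of the 24 higher and 0 lower, and the fit as deposited 2 higher and 3 lower. With knockout 4 left out as well, an alternative added after seeing the data, the covariate fit called 15 higher.

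Claudins moved in both directions. Of 13 tested, 3 were higher and 2 lower in both fits, beside 3.54% and 3.92% of all genes. The lower ones were Cldn18 and Cldn3. As deposited 1 claudin was called higher without control 2 or control 4, and without the library labelled knockout 5 there were 4 lower, while 1 was lower without any 1 of the other libraries. Cldn8, a claudin that seals against cations, stood at 7.26, 11.3, 9.94, 3.70 and 5.06 FPKM in knockout libraries, against 2.43, 2.31 and 2.08 FPKM in controls (1.28, SE 0.30, adjusted p = 0.0186). Cldn1, a claudin of stratified epithelia that mesenchymal cells also express, stood at 9.84, 2.35, 4.96, 4.92 and 2.0 FPKM, against 0.34, 1.27 and 0.29 FPKM (1.73, SE 0.39, adjusted p = 0.0169). Together with Cldn10 these lay above all controls in every knockout library. Tight junction and polarity genes fell for 9 of 25 tested members as deposited and for 5 in both fits, with none higher in both. Crb3, the apical Crumbs protein, stood at 3.20, 3.07, 4.19, 3.07 and 7.97 FPKM, against 12.2, 10.3 and 14.1 FPKM (-1.38, SE 0.28, adjusted p = 0.00986). Marveld2, tricellulin, stood at 12.3, 12.4, 11.1, 12.4 and 19.1 FPKM, against 28.4, 27.6 and 26 FPKM (-0.99, SE 0.21, adjusted p = 0.0113). For these 2 genes knockout libraries 1 to 4 were alike and the library labelled knockout 5 was higher. Without control 2 or control 4 none of the tight junction genes was called lower as deposited, and without the library labelled knockout 5 there were 12.

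Genes of the brush border fell for 10 of 18 tested members as deposited and for 8 in both fits, beside 3.92% of all genes. Their median was -1.03 as deposited and -0.62 with the covariate. Anpep, an aminopeptidase of the microvillus membrane, stood at 2.58, 1.97, 1.81, 3.60 and 7.90 FPKM in knockout libraries, against 33.8, 25.2 and 54.1 FPKM in controls. Myo1a, the brush border myosin, stood at 0.91, 0.66, 0.88, 2.14 and 4.92 FPKM, against 13.5, 10.2 and 15.3 FPKM. Eps8l3, which encodes a relative of a capping protein of microvillus tips, stood at 0, 0.06, 0.09, 0.05 and 0.47 FPKM, against 2.10, 2.08 and 3.40 FPKM. The 3 fell by 3.16 (SE 0.43), 2.43 (SE 0.36) and 1.63 (SE 0.16) on the log2 scale, with the library labelled knockout 5 the highest knockout library in each. Cobl, an actin nucleator, rose in both fits (0.77, SE 0.15, adjusted p = 0.00903), at 3.68 to 4.25 FPKM in knockout and 1.63 to 2.21 FPKM in control libraries. Without control 2 and without control 4, 5 and 4 members were called lower as deposited.

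Detoxifying enzymes of the columnar epithelium fell for 13 of 30 tested members as deposited and for 12 in both fits, with 1 higher in both. Sult1d1, a cytosolic sulfotransferase, stood at 1.38, 1.51, 1.94, 1.93 and 2.43 FPKM in knockout libraries, against 41.9, 52.7 and 51.1 FPKM in controls. All 5 knockout libraries were low and close together, and it had the smallest adjusted p among all 12694 genes (-4.13, SE 0.17, adjusted p = 6.65e-08, and -4.03 with the covariate). Ugt2b35, a glucuronosyltransferase, stood at 2.80, 1.13, 0.85, 1.31 and 2.09 FPKM, against 8.45, 9.96 and 11 FPKM (-2.08, SE 0.23). Aldh1a1, which oxidises retinaldehyde to retinoic acid, stood at 21.8, 19.9, 27.0, 12.2 and 16.9 FPKM, against 45.9, 40.0 and 71.1 FPKM (-1.38, SE 0.24). Knockout 5 lay within the range of the other knockout libraries for both. Gsta3, a glutathione S-transferase, was the member that rose (1.29, SE 0.25, adjusted p = 0.00834), at 5.05 to 10.7 FPKM in knockout and 1.83 to 2.88 FPKM in control libraries.

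Of 19 tested general epithelial genes, 13 lay below all controls in every knockout library, where 24.9% of all genes did, and 3 were called lower in both fits, where 3.92% of all genes were. These were the factor Elf3, the membrane protease gene St14 and the protease inhibitor gene Spint2. Epcam, the epithelial adhesion molecule, stood at 254.1, 326.5, 395.0, 203.1 and 308.8 FPKM in knockout libraries, against 408.3, 348.9 and 388.0 FPKM in controls. The groups overlapped (-0.39, SE 0.24, adjusted p = 0.231). Cdh1, E-cadherin, stood at 81.7, 100, 115.1, 96.1 and 128.4 FPKM, against 149.7, 146.6 and 174.5 FPKM, below all controls and not called (-0.60, SE 0.31, adjusted p = 0.164). The keratins of simple epithelium Krt8 and Krt18 were not called, with Krt8 at 27.1, 35.7, 32.4, 44.9 and 130 FPKM in knockout libraries, against 237.9, 180.1 and 243.7 FPKM in controls (-2.25, adjusted p = 0.0653). The median of the list was -1.79 as deposited and -0.49 with the covariate, and without the library labelled knockout 5 there were 10 of the 19 called lower as deposited and 4 with the covariate. As deposited none was called without knockout 1, 2 or 3 or without any 1 control, and 1 was without knockout 4.

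**Figure D4:**
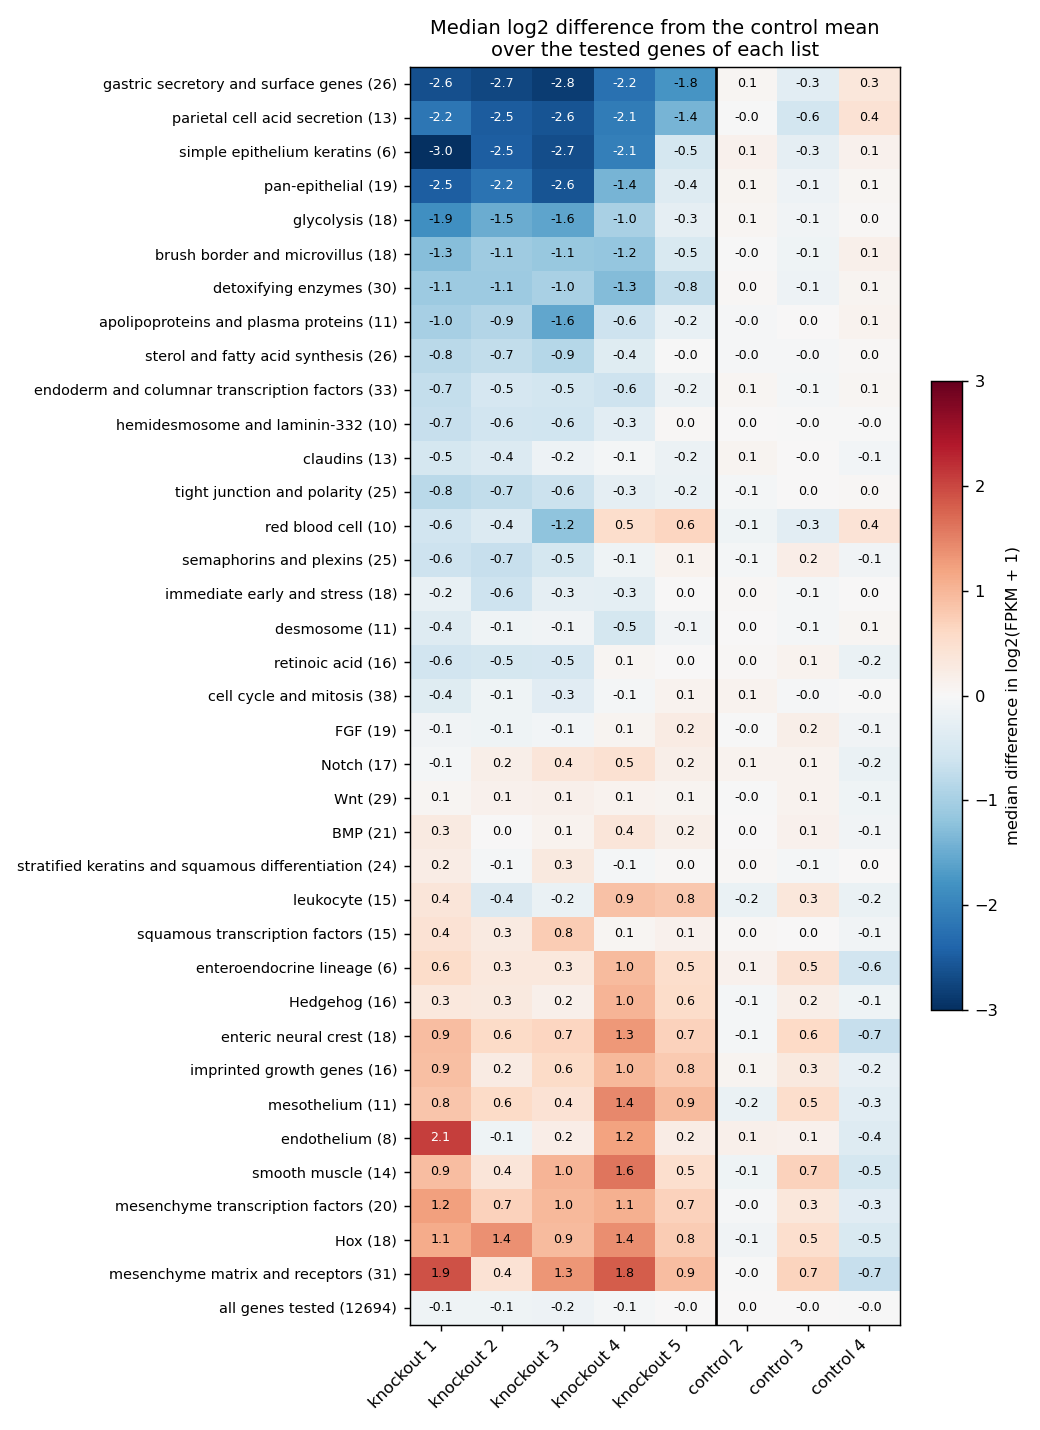
Median difference of log2(FPKM + 1) from the control mean over the tested genes of each list (number in parentheses), for each knockout library (left of the line) and each control library (right). Gastric and parietal genes are low in all 5 knockout libraries, at -1.76 and -1.39 even in the library labelled knockout 5, whereas the medians for simple keratins, pan-epithelial and glycolysis genes in the library labelled knockout 5 (-0.53, -0.39 and -0.26) are much nearer to the controls than in knockout 1 to 3.

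Many markers of mesenchyme and some of enteric neural crest were higher in the knockout libraries. Markers of other cells outside the epithelium moved in both directions or were not called in both fits. The labels describe isolated epithelial cells, and in bulk RNA more cells of a type and more RNA per cell cannot be told apart. Of 31 tested genes of mesenchymal matrix and receptors 14 were higher and 1 lower as deposited, and 8 higher and none lower in both fits, with a median of 1.27. The summed level of this list was 632 to 1440 FPKM in knockout and 400 to 694 FPKM in control libraries. Dcn, the collagen-binding proteoglycan decorin of fibroblasts, stood at 128.7, 65.9, 135.5, 44.9 and 32.0 FPKM in knockout libraries, against 14.7, 12.9 and 7.67 FPKM in controls (2.52, SE 0.47, adjusted p = 0.00728). Ogn, the proteoglycan osteoglycin, stood at 50.7, 25.4, 47.2, 23.8 and 9.69 FPKM, against 3.80, 7.63 and 1.5 FPKM (2.58, SE 0.53, adjusted p = 0.0108). Both lay above all controls in every knockout library, and the library labelled knockout 5 was the lowest. Control 3 was the control nearest to the knockout libraries for 7 of the 8 genes, and without control 2 or control 4 only 3 and 1 members were called higher as deposited.

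Mesenchymal transcription factors rose for 9 of 20 tested members as deposited and for 7 in both fits, with none lower. Nfia, a nuclear factor I gene, stood at 16.1, 12.4, 14.9, 12.9 and 8.82 FPKM, against 2.60, 3.97 and 1.54 FPKM (1.95, SE 0.28, adjusted p = 0.00183). Six2, a homeobox factor of stomach and pyloric mesenchyme, stood at 7.13, 5.26, 4.33, 16.3 and 6.83 FPKM, against 1.18, 3.06 and 0.79 FPKM (1.70, SE 0.38, adjusted p = 0.0161). Both lay above every control in all 5 knockout libraries. Without control 2 or control 4, 1 member each was called higher as deposited and 4 each with the covariate.

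Hox genes rose in the knockout libraries. Of 30 listed 18 were tested, and 8 were higher in each fit, 7 in both, where 3.54% of all genes were. None was lower, and the median was 1.06 as deposited and 1.13 with the covariate. Hoxa4 stood at 13.2, 15.2, 13.8, 17.1 and 15.4 FPKM in knockout libraries, against 1.97, 3.85 and 1.05 FPKM in controls. Hoxa3 stood at 13.6, 16.0, 16.4, 11.7 and 10.1 FPKM, against 2.53, 4.57 and 1.77 FPKM. Hoxa5 stood at 17.4, 21.2, 19.9, 18.3 and 13.1 FPKM, against 3.03, 7.15 and 2.01 FPKM. For all 3 the knockout libraries were close together and well above the controls, with fold changes of 2.36 (SE 0.28), 1.92 (SE 0.25) and 2.02 (SE 0.33). These genes pattern the body axis, and both gut epithelium and mesenchyme can express them. Hoxb2, Hoxb3, Hoxb4 and Hoxa2 were the others called in both fits, at 1.35 to 1.84. With 1 library left out 4 to 11 Hox genes were called higher as deposited and 3 to 10 with the covariate, the lowest counts being those without control 4.

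Enteric neural crest genes rose for 6 of 18 tested members as deposited and for 4 in both fits, with a summed level of 177 to 327 FPKM in knockout and 65.5 to 157 FPKM in control libraries. Mesothelium genes rose for 4 of 11 as deposited and for 2 in both fits, Wt1 and Upk1b, while Msln, mesothelin, fell (-3.06, SE 0.49, adjusted p = 0.00294). Their summed level was 57.2 to 173 FPKM in knockout and 158 to 175 FPKM in control libraries. Smooth muscle genes rose for 3 of 14 as deposited and for 1 in both fits, Cald1 (2.24, SE 0.44), and 1 fell in both. Of all genes 3.54% were higher and 3.92% lower in both fits. The smooth muscle sums were 114 to 287 FPKM in knockout and 53.6 to 140 FPKM in control libraries. Without control 2 or control 4 none of the enteric, mesothelial or smooth muscle genes was called higher as deposited. Without the library labelled knockout 5, 10 enteric and 4 smooth muscle genes were called higher as deposited, and 12 and 11 with the covariate.

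No endothelial, leukocyte or red blood cell gene was called in both fits. Their summed levels overlapped between knockout and control libraries, at 10.7 to 56.4 against 18.1 to 25.8 FPKM for endothelium, 15.9 to 56.2 against 16.6 to 34.9 FPKM for leukocytes and 372 to 1900 against 854 to 1390 FPKM for red blood cells. With limma at an adjusted p under 0.05 as deposited, endothelium had 0 genes called, leukocytes 1 higher and red blood cells 0. Of 19 markers of intestine, pancreas, lung and liver 1 was tested, and Ptf1a, Sftpc, Sftpb, Scgb1a1 and Ins2 were listed at 0 in all 8 libraries. How far the mesenchymal, neural and mesothelial levels contribute to the other genes that rose was not tested.

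Hedgehog pathway genes rose for 6 of 16 tested members as deposited and for 4 in both fits, beside 3.54% of all genes. The ligand fell in 1 fit only. Ihh, the Indian hedgehog ligand of gastric epithelium, stood at 1.46, 2.14, 1.16, 6.90 and 17.6 FPKM in knockout libraries, against 28.8, 25.1 and 23.3 FPKM in controls. It followed the order of the slopes and was called as deposited (-2.48, SE 0.56, adjusted p = 0.0172) and not with the covariate (-1.65, adjusted p = 0.055). Gas1, a coreceptor for hedgehog ligands, stood at 46.7, 18.8, 28, 33.4 and 14.3 FPKM, against 4.37, 10.4 and 2.77 FPKM (2.14, SE 0.43, adjusted p = 0.0102). Cdon, also a coreceptor, stood at 22.9, 13.4, 16.7, 20.8 and 14.6 FPKM, against 7.59, 11.8 and 8.13 FPKM (0.87, SE 0.20, adjusted p = 0.019). Both coreceptors lay above all controls in every knockout library. Foxf1, the forkhead factor of gut mesenchyme and a target of Hedgehog signals, stood at 18.5, 15.4, 20.3, 29.9 and 8.89 FPKM in knockout libraries, against 2.69, 8.46 and 1.63 FPKM in controls (2.03, SE 0.45, adjusted p = 0.0158). Its margin over control 3 was small in the library labelled knockout 5. Gli3, a transcription factor of the pathway, rose by 1.19 (SE 0.24, adjusted p = 0.0104), at 5.73 to 12.5 FPKM in knockout and 2.16 to 4.27 FPKM in control libraries. These are the 4 called in both fits, and no Hedgehog gene was called higher as deposited without control 2 or control 4. The mesenchymal levels given above moved in the same direction in the same libraries.

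In the Wnt pathway 3 receptor genes of the epithelium fell in both fits and 1 gene rose. Lgr5, the stem cell receptor for R-spondins, stood at 4.79, 4.40, 4.24, 2.73 and 4.28 FPKM in knockout libraries, against 7.88, 7.36 and 10.7 FPKM in controls (-0.92, SE 0.19, adjusted p = 0.0105). Lgr4, its relative, stood at 45.1, 41.8, 50.5, 36.3 and 38.4 FPKM, against 70.0, 72.1 and 83.7 FPKM (-0.82, SE 0.21, adjusted p = 0.0264). Fzd5, a frizzled receptor of gut epithelium, stood at 10.5, 10.1, 9.65, 15 and 18.2 FPKM, against 31.0, 32.4 and 28.3 FPKM (-1.24, SE 0.22, adjusted p = 0.00562). All 5 knockout libraries lay below the controls in each of the 3 genes, and with the covariate they stood at -0.99, -1.14 and -0.89. Sfrp1, a secreted Wnt antagonist, rose (2.44, SE 0.45, adjusted p = 0.00631), at 39.6 to 99.0 FPKM in knockout and 4.28 to 23.9 FPKM in control libraries. Of 29 tested Wnt genes 4 were higher and 3 lower as deposited, and the median was 0.08. The 1 gene higher in both fits is near the 3.54% of all genes called so, and 3.92% were called lower. Without control 4 only 1 was lower as deposited, and 3 with the covariate.

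Single ligands and targets of other pathways were called in both fits, where 3.54% of all genes were called higher and 3.92% lower. The single calls each way among BMP and FGF genes are near these shares and are no result about the pathways. Of 21 tested BMP pathway genes 1 was higher and 1 lower, Bmper (0.71) and Bmp2 (-1.13), the BMP ligand, at 0.63 to 1.25 FPKM in knockout and 2.09 to 4.86 FPKM in control libraries. Of 19 FGF pathway genes the ligand Fgf10 rose, at 7.75, 4.14, 6.2, 14.8 and 4.79 FPKM in knockout libraries, against 0.71, 2.70 and 0.33 FPKM in controls (1.94, SE 0.39, adjusted p = 0.0102), and the receptor Fgfr4 fell (-1.79, SE 0.39). Of 17 Notch pathway genes the targets Hey1 (1.62, SE 0.27, adjusted p = 0.00389) and Nrarp (0.75, SE 0.19) rose. Of 16 retinoic acid genes the receptor Rarb and the synthetic enzyme Aldh1a2 rose and Aldh1a1 fell. Rarb stood at 29.4, 34.0, 31.9, 27.2 and 22.9 FPKM, against 12.4, 14.6 and 9.23 FPKM (1.21, SE 0.16, adjusted p = 0.00117). Aldh1a2 stood at 13.7, 14.3, 16.4, 28.8 and 23.1 FPKM, against 3.78, 10.8 and 2.60 FPKM (1.73, SE 0.41, adjusted p = 0.0204). Aldh1a2 lay above and Aldh1a1 below all controls in every knockout library. No BMP or FGF gene was called higher as deposited without control 2 or control 4, and 1 Notch and 1 retinoic acid gene was in each case. With the library labelled knockout 5 left out, 8 BMP and 5 Notch genes were higher and 5 Notch and 5 retinoic acid genes lower as deposited. Mesenchymal markers were higher in the same libraries, and their part in Fgf10, Hey1, Rarb and Aldh1a2 was not tested.

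**Figure D5:**
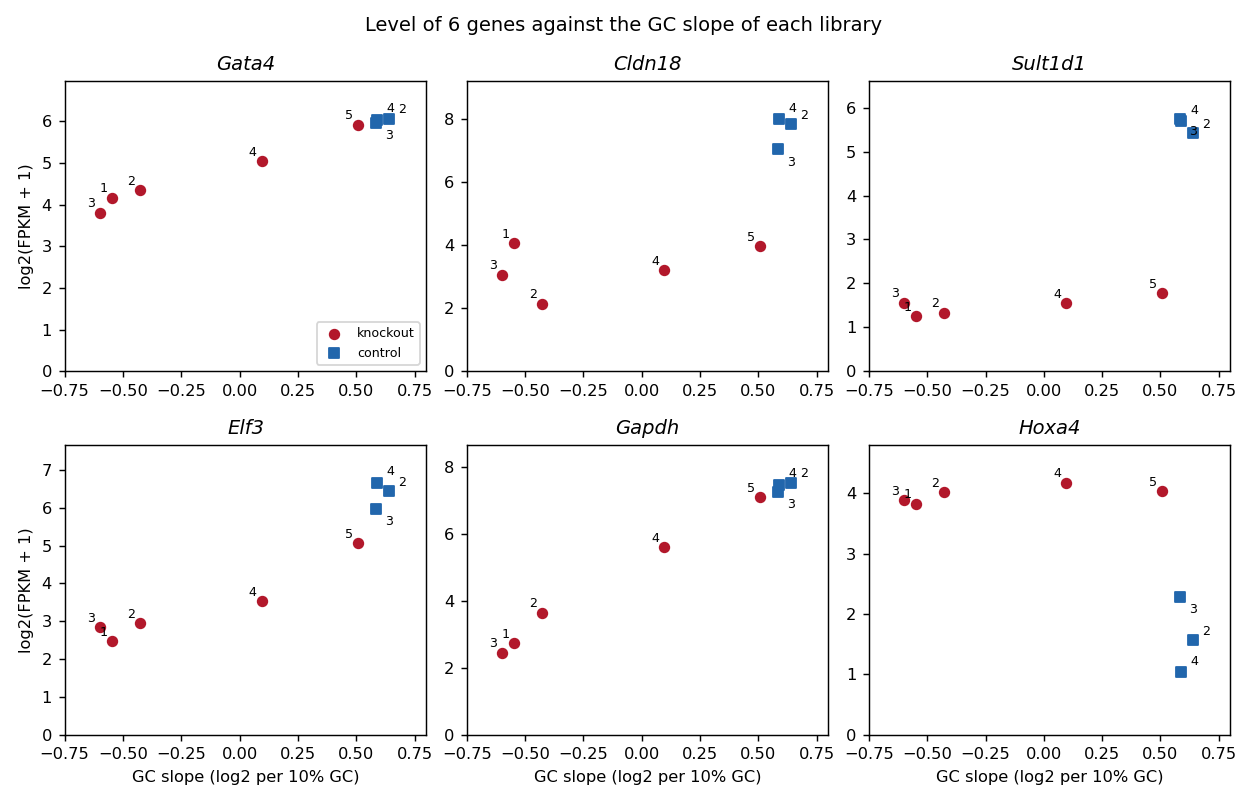
Level of 6 genes as log2(FPKM + 1) against the GC slope of each library, with knockout libraries as red circles and controls as blue squares, numbered by replicate. Gapdh and Gata4 run along the slope, and in both of them the library labelled knockout 5 meets the controls. Sult1d1, Cldn18 and Hoxa4 differ between the library labelled knockout 5 (slope 0.507) and the controls (0.585 to 0.640) at nearly equal slope.

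The library labelled knockout 5 and control 3 decided how wide the gaps were. Of the 498 genes called lower in both fits the library labelled knockout 5 was the knockout library nearest to the controls for 392, and control 3 was the control nearest to the knockout libraries for 357. Of the 450 genes called higher in both fits these numbers were 271 and 398. For the 22 gastric genes that fell they were 18 and 17. With all hindstomach libraries of a slope below 0 left out, which leaves knockout 4 and 5 against the 3 controls, 14 of the 26 gastric genes and 4 of the 13 parietal genes were still called lower, among 66 genes lower and 18 higher in all.

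Of 18 tested glycolysis genes 12 lay below all controls in every knockout library, where 24.9% of all genes did, but 1 was called lower as deposited and none with the covariate. Without the library labelled knockout 5, 8 were called lower as deposited and 0 with the covariate. Gapdh, the glycolytic enzyme often used as a reference, had a log2 fold change of -3.12, not called (adjusted p = 0.107), with p = 0.0357 in a two-sided exact permutation test. The median of the glycolysis list was -1.25 as deposited and -0.01 with the covariate. Of 26 genes of sterol and fatty acid synthesis 2 were lower as deposited and 1, Insig1, in both fits (-0.75, SE 0.16, adjusted p = 0.015). These counts are near the 6.28% and 3.92% of all genes and are no result about the pathway. Without the library labelled knockout 5, 11 were lower as deposited and 2 with the covariate.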

How the data were processed

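RNA was measured in 14 libraries of E14.5 stomach epithelium, 8 of them from hindstomach. Per the labels' protocols, the kit was NEBNext Ultra II Directional. The authors deposited FPKM per gene. The submitters' processing notes name the build mm9, while no source used here states the aligner, the counting or the annotation. Of 22906 entries 108 duplicates were dropped, and 12694 genes with at least 1 FPKM in at least 3 libraries were tested on log2(FPKM + 1) with limma 3.58.1 in R 4.3.3 (1 mean per group over 14 libraries, moderated variances with trend and robust settings, Benjamini-Hochberg adjustment), once as deposited and once with the GC slope as a covariate. The slope used transcript GC content for 99.33% of the tested genes. No set test was run. The fits were tested on simulated data.

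The comparison, the gene lists and the rules were chosen with earlier results of these data known. Named genes were Gata4, Gata5, Gata6 and the markers, 15 genes per direction with the largest change called in both fits without overlap, and up to 4 genes per list. Others, such as Hnf4a, Ihh, Gapdh, Krt8, Sox2, Psca and Akr1c19, were named after their values were seen. Same-numbered libraries gave no sign of pairing, so the main fit has no block. Relative depth came from the FPKM steps of low genes. FPKM give no absolute depth, so no counting interval was computed. Results for some genes are not reported here.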

Additional observations from a re-analysis of the deposited data

Results flagged for a closer look

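Of the 99 genes named in the text and tested, 14 had 1 knockout library that stood apart from the other 4 of its group. The gap to the nearest library was taken on log2(FPKM + 1), as a share of the range of the 5 values. In these genes the share was above the 95% critical value of 0.71 in Dixon's test for 5 samples. Chance alone gives such a gap in about 1 in 20 groups.

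The library labelled knockout 5 was the highest in most of them. The share was 0.767 for Cym, 0.755 for Pgc, 0.914 for Pga5 and 1.0 for Gkn3 among gastric genes. It was 0.777 for Eps8l3 of the brush border, 0.805 for Marveld2 of tight junctions, 0.775 for Apoa1 and 0.779 for Cdkn1a. In each of these the library labelled knockout 5 lay toward the controls and still below all of them, as with Cym at 444.7 FPKM in the library labelled knockout 5 and 63.3 to 99.9 FPKM in the other knockout libraries.

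Knockout 4 stood apart in 3 genes, as the highest for Hoxb2 (0.744) and as the lowest for Lgr5 (0.772) and Msx2 (0.799). Knockout 3 was the highest for Cobl (0.792), at 4.25 FPKM beside 3.68 to 3.79 FPKM in the other knockout libraries, and for Krt13 (0.723), at 0.87 FPKM beside 0 to 0.19 FPKM. Knockout 1 was the highest for Slc26a7 (0.764), at 2.94 FPKM beside 0.76 to 1.13 FPKM.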

How the results depend on the processing

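No gene called as deposited was called in the opposite direction in any of the 31 alternatives. Krt13, which was not called as deposited, changed sign and was called in alternatives given below. The numbers of genes higher and lower, 883 and 797 as deposited, moved by over 1.5 times in at least 1 direction under 8 alternatives besides those that left out 1 library. They were 529 and 412 with at least 5 FPKM in 3 libraries, 1821 and 3112 with the hindstomach libraries alone, 1260 and 1220 with quantile normalization, 4152 and 5536 with array weights, whose fit did not converge, and 1528 and 1311 with a loess correction on GC and length. With the hindstomach libraries alone and the covariate, chosen after seeing the data, they were 111 and 234, and without hindstomach libraries of a GC slope below 0 they were 18 and 66. Leaving out 1 library gave 69 to 1763 higher and 198 to 2361 lower as deposited, and 163 to 1605 and 222 to 777 with the covariate. With the covariate, the counts higher were 365 without knockout 4 and 271 without control 2, and the counts lower were 503, 527, 509 and 348 without knockout 1, 2, 3 and 4 and 287 without control 2. The share of calls that were higher was 63.7% with a pseudocount of 0.1 and 36.9% with the hindstomach libraries alone, against 52.6%.

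Shared replicate numbers 2, 3 and 4 did not pair the libraries, since same-numbered deviations correlated at 0.033, 0.059 and -0.255. With the replicate block the counts were 1717 and 3724, or 1295 and 806 with the covariate as well.

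Gata4 ranged over -1.15 to -1.68 with 1 library left out as deposited and -0.34 to -0.65 with the covariate. It passed the threshold with the hindstomach libraries alone (-1.37), quantile normalization (-1.23), array weights (-1.76) and the replicate block (-1.62), and stood at 0.02 with the hindstomach libraries alone and the covariate. The difference in GC slope was -0.698 to -0.975 with 1 library left out and its exact permutation p was 0.0571 or 0.0952. The cause was not tested.

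Named genes that changed sign were not called in the alternative unless stated. With the loess correction Epcam stood at 0.11, Psca at 0.24 and Krt13 at 0.63. With the replicate block and the covariate Cldn8 stood at -0.25, Krt5 at -0.13, Pdx1 at 0.46, Sox2 at -0.31 and Gapdh at 0.16. Gapdh stood at 0.18 with the hindstomach libraries alone and the covariate, and at 0.01 to 0.04 where leaving out 1 library turned it. Krt13 stood at 1.63 with the covariate, at 0.01 to 2.81 where leaving out 1 library turned it (1.58, 1.97, 1.57 and 1.83 with the covariate and without knockout 2, knockout 4, control 2 and control 4, and called at 2.81 without the library labelled knockout 5), and at 4.08 and called without knockout 4 and the library labelled knockout 5. The covariate values of Krt13 come from fits that include the forestomach libraries, while Krt13 stood at 0 to 0.87 FPKM in knockout libraries. FPKM give no absolute depth, so levels near 0 cannot be told from no expression.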

Other observations

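Imprinted genes that regulate growth rose for 5 of 16 tested members as deposited and for 4 in both fits, with none lower and a median log2 fold change of 0.73, beside -0.08 over all genes. The summed level of the list went the other way, at 2610 to 5070 FPKM in knockout and 4870 to 6510 FPKM in control libraries. Mest, a paternally expressed gene of mesoderm, stood at 388.2, 128.0, 186.7, 378.6 and 140.4 FPKM in knockout libraries 1 to 5, against 42.1, 99.0 and 13.5 FPKM in controls 2, 3 and 4 (2.47, SE 0.56, adjusted p = 0.0168). Cdkn1c, the cell cycle inhibitor p57, stood at 196.1, 162.9, 175.3, 158.9 and 127.2 FPKM, against 82.8, 82.9 and 64.6 FPKM (1.08, SE 0.24, adjusted p = 0.0156). Rian, a maternally expressed noncoding RNA, stood at 209.1, 145.6, 142.7, 222.7 and 147.1 FPKM, against 65.2, 84.3 and 52.0 FPKM (1.36, SE 0.22, adjusted p = 0.00331). All 3 lay above every control, and mesenchymal markers were higher in the same libraries. The part of those markers in this result was not tested. Without control 2 or control 4, 1 imprinted gene was called higher as deposited.

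Semaphorins, plexins and neuropilins, guidance cues and their receptors, moved in both directions. Of 25 tested members 7 were higher and 1 lower as deposited, and 5 higher and none lower in both fits, but the median was -0.35 as deposited and 0.21 with the covariate. In every knockout library 6 of the 25 members lay above and 7 below all controls, where 17.7% and 24.9% of all genes did. Without the library labelled knockout 5 there were 5 called lower as deposited. Sema3a, a secreted repellent, stood at 7.90, 5.36, 9.33, 6.2 and 3.11 FPKM in knockout libraries, against 0.64, 1.81 and 0.55 FPKM in controls (1.87, SE 0.32, adjusted p = 0.00419). Its groups did not overlap, with the library labelled knockout 5 the lowest knockout library and control 3 the highest control. Without control 2 or control 4, 3 and 2 members were called higher as deposited, and without knockout 1 or knockout 4 3 each were.

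Of 38 cell cycle genes 3 were higher and 1 lower as deposited, with 1 in each direction in both fits. The calls in both fits are near the 3.54% and 3.92% of all genes. In every knockout library 13 cell cycle genes lay above all controls, beside 17.7% of all genes. The count higher depended on the setting, at 7 without the library labelled knockout 5, 1 without any 1 other knockout library or control 3, and 0 without control 2 or control 4. It was 9 at a common FPKM sum, 10 with quantile normalization and 10 with the hindstomach libraries alone. Cdkn1a, the inhibitor p21, was the member that fell, at 4.74, 5.65, 4.57, 5.60 and 11.4 FPKM in knockout libraries, against 27.9, 26.9 and 29.8 FPKM in controls (-2.05, SE 0.47, adjusted p = 0.0183). Apoa1, an apolipoprotein of intestine and liver, fell (log2 fold change -4.38, adjusted p = 0.000143), with 0.09 to 3.29 FPKM in knockout and 21.6 to 51.4 FPKM in control libraries. Scg3, a secretory granule protein of endocrine cells and neurons, rose as the 1 of 6 enteroendocrine genes called in both fits (1.68, SE 0.38, adjusted p = 0.0161). Of the 10 hemidesmosome genes, with limma, 0 were called as deposited and 1 was higher with the covariate, while 4 were lower without the library labelled knockout 5 and 2 higher and 3 lower with the hindstomach libraries alone. Of the 11 desmosome genes Jup and Dsc2 were lower in both fits.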
